A study of Mus musculus with 12 samples.

Results

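The 9 genes described here encode the enzymes that build and break down glycogen, with 2 subunits that bring protein phosphatase 1 to it. They are the glycogen synthases Gys1 and Gys2, the branching enzyme Gbe1, the UDP-glucose pyrophosphorylase Ugp2, the glycogen phosphorylases Pygl, Pygb and Pygm, and the targeting subunits Ppp1r3b and Ppp1r3c. They were taken by name from 22180 genes measured, each by its brightest probe set that maps to that gene alone, and all 9 had one. Gys2 was chosen by its measured rise with rosiglitazone, so its rosiglitazone differences are a description and carry no test. The other members were picked for their pathway, with earlier results of these data known.

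Glycogen is the branched glucose polymer in which animal cells keep a quickly usable store of sugar. UDP-glucose made by UGP2 is added to the polymer by glycogen synthase, GBE1 introduces the branches, and phosphorylase releases glucose 1-phosphate again. Phosphatase 1, held at the particle by a PPP1R3 subunit, removes phosphate from both enzymes, which switches the synthase on and the phosphorylase off. Adipocytes keep a small glycogen store that is known to turn over with feeding and insulin. GYS1 is the synthase of muscle and most tissues and GYS2 that of liver, and Gys2 has been described as a target of PPAR nuclear receptors in mouse liver and fat.

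RNA of fat cells was measured on 12 Affymetrix arrays, 3 for each of 4 groups. The cells were differentiated in culture from precursors of mouse inguinal fat, the subcutaneous depot of the groin. All 4 groups carry R26Cre, in which Rosa26 drives the Cre recombinase, and Prdm16floxEx9, in which loxP sites flank an exon of Prdm16. PRDM16 is a transcriptional coregulator of the brown and beige fat program. Precursors in growth phase received ethanol (EtOH) or 1 uM 4-hydroxytamoxifen (4OHT), which activates tamoxifen-dependent Cre, for 3 days. All were then differentiated in a medium with insulin, isobutylmethylxanthine, indomethacin, dexamethasone and the thyroid hormone T3, without rosiglitazone (EtOH, 4OHT) or with 1 uM of this PPARgamma agonist (EtOH_Rosi, 4OHT_Rosi). No group given 4OHT lacks Cre or the floxed allele, so the ligand, Cre activity and loss of the exon cannot be told apart. The labels give neither the age and number of the mice nor whether replicates were separate cultures. The spread behind the p-values is thus that between arrays and may be technical, and the number of arrays limits the precision.

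Values are the authors' log2 probe set values, which ran from 3.05 to 13.91, with array medians between 5.97 and 6.05 and a median level of 6.60 over the genes tested. One array, 4OHT_Rosi 3, stood apart on principal component 3 (5.67% of the variance), with a score of 16.03 where the rest ranged from -8.95 to 7.97. Prdm16 lay at 7.37 ± 0.14 (SD, n = 3) in EtOH_Rosi and at 6.65 ± 0.04 in 4OHT_Rosi (limma adjusted p = 0.000646). Without rosiglitazone it lay at 6.63 ± 0.19 in EtOH and 6.46 ± 0.13 in 4OHT (adjusted p = 0.455). These are values of the brighter of 2 Prdm16 probe sets, and the other is not described here. Whether the brighter one covers the floxed exon was not looked up. Of 9 adipocyte markers measured, at least 8 lay above that median level in every group. Of 6 hepatocyte markers, none did in any group, among them albumin, Alb. Of 6 skeletal muscle markers, 2 or 3 did.

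Each difference is one group's mean log2 value minus another's, given ± its standard error from limma, with 3 arrays in each group. Adjusted p-values are from limma with Benjamini-Hochberg adjustment over all 22180 genes, and a gene was called at an adjusted p under 0.05. The plot of each array's value shows all 9 genes.

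**Figure D1:**
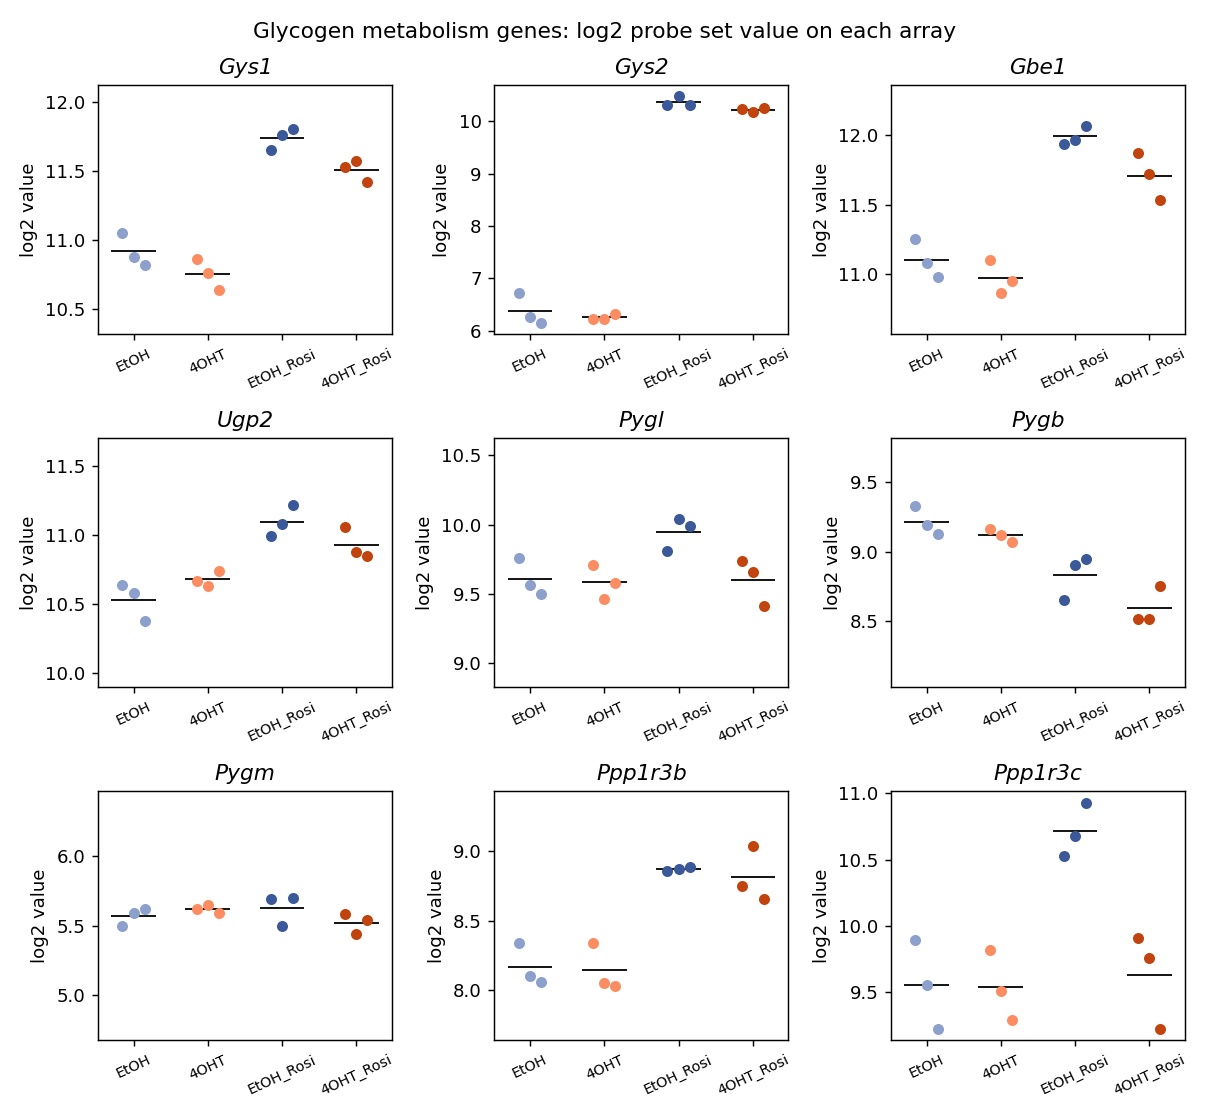
Log2 probe set value (vertical axis, a scale of its own in each panel) of the 9 glycogen metabolism genes in the groups EtOH, 4OHT, EtOH_Rosi and 4OHT_Rosi (horizontal axis). Each point is 1 array and each bar a group mean of 3 arrays. Gys2 lies between 6.15 and 6.72 without rosiglitazone and between 10.17 and 10.48 with it, whereas Ppp1r3c is high only in EtOH_Rosi, where its group mean is 10.71.

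The first comparison asked what rosiglitazone changed in control adipocytes, those given ethanol. Besides Gys2, 6 of the other 8 members rose (Gys1, Gbe1, Ugp2, Pygl, Ppp1r3b and Ppp1r3c) and 1 fell (Pygb). Over all genes, 14.4% were called higher and 16.3% lower. The median difference of the 8 members was 0.64, beside 0.01 over all genes tested. The rosiglitazone arrays lay above the EtOH arrays in the same 6 genes and below them in Pygb, where 19.8% and 20.9% of all genes did so. These are bulk samples, in which fewer cells of a type and less RNA per cell cannot be told apart.

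Gys2, the liver-type synthase, was at 6.72, 6.26 and 6.15 on the 3 EtOH arrays and at 10.32, 10.48 and 10.31 on the 3 EtOH_Rosi arrays. After 4OHT it was at 6.23, 6.22 and 6.32 without rosiglitazone and at 10.23, 10.17 and 10.26 with it. Every rosiglitazone array thus lay more than 3 log2 units above every array without the drug. The differences were 3.99 after EtOH, or 15.9-fold, and 3.96 after 4OHT, or 15.6-fold. Ranked from the largest rise over all genes, Gys2 was number 4 after EtOH and number 3 after 4OHT. Its levels without rosiglitazone lay below the median level of all genes in all but 1 of 6 arrays, and arrays compress fold changes of dim probe sets.

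Gys1, the synthase of muscle and most other tissues, was at 11.05, 10.88 and 10.82 in EtOH and at 11.65, 11.76 and 11.80 in EtOH_Rosi. All rosiglitazone arrays lay above all EtOH arrays. It rose by 0.82 ± 0.08 (1.77-fold, adjusted p = 3.15e-06). After 4OHT, Gys1 was at 10.86, 10.76 and 10.64 without rosiglitazone and at 11.53, 11.57 and 11.42 with it. That rise was 0.75 ± 0.08 (1.69-fold, adjusted p = 1.06e-05), and again the groups did not overlap.

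Gbe1, the enzyme that makes the branch points, rose in both backgrounds. It was at 11.25, 11.08 and 10.98 in EtOH and at 11.94, 11.97 and 12.07 in EtOH_Rosi, a rise of 0.89 ± 0.09 (1.85-fold, adjusted p = 8.05e-06). After 4OHT it was at 11.10, 10.86 and 10.95 without rosiglitazone and at 11.87, 11.72 and 11.53 with it, a rise of 0.74 ± 0.09 (adjusted p = 6.62e-05). The groups compared did not overlap in either case. Over the 12 arrays, Gbe1 and Gys1 had a Pearson r of 0.986, a description of these arrays, which share the rosiglitazone step.

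Ugp2, which supplies UDP-glucose, was at 10.64, 10.58 and 10.38 in EtOH and at 10.99, 11.08 and 11.22 in EtOH_Rosi. It rose by 0.56 ± 0.08 (1.48-fold, adjusted p = 0.000139). After 4OHT it was at 10.67, 10.63 and 10.74 without rosiglitazone and at 11.06, 10.88 and 10.85 with it. The arrays did not overlap there either, but the rise was smaller, 0.25 ± 0.08 (adjusted p = 0.0462). That call was lost without EtOH 2 (adjusted p 0.0596), 4OHT 1 (0.113), 4OHT 2 (0.142), 4OHT 3 (0.0637), EtOH_Rosi 2 (0.0589), 4OHT_Rosi 1 (0.186) or 4OHT_Rosi 2 (0.0657), and under quantile normalization (0.0635). A fit with a replicate block lost the call too (adjusted p 0.0747). The difference between the rises was -0.31 ± 0.12 (adjusted p = 0.241), which did not pass.

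Of the targeting subunits, Ppp1r3b, known from liver as GL, rose in both backgrounds. It was at 8.34, 8.10 and 8.06 in EtOH and at 8.86, 8.87 and 8.89 in EtOH_Rosi, a rise of 0.71 ± 0.11 (1.63-fold, adjusted p = 0.000168). After 4OHT it was at 8.34, 8.05 and 8.03 without and at 8.75, 9.04 and 8.66 with rosiglitazone, a rise of 0.68 ± 0.11 (adjusted p = 0.000383). The difference between the rises was -0.03, with a 95% interval from -0.36 to 0.30. The dimmer second probe set of Ppp1r3b, between 7.14 and 7.78, rose too, by 0.29 ± 0.07 and 0.39 ± 0.07 (adjusted p over all probe sets 0.00822 and 0.00162).

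The phosphorylases, which release glucose from glycogen, did not move together. Pygb, the brain-type enzyme, was at 9.33, 9.19 and 9.13 in EtOH and at 8.65, 8.90 and 8.95 in EtOH_Rosi. It fell by 0.38 ± 0.09 (adjusted p = 0.00446), and all rosiglitazone arrays lay below all EtOH arrays. After 4OHT it went from 9.16, 9.12 and 9.07 to 8.51, 8.51 and 8.75. That fall was 0.53 ± 0.09 (1.44-fold, adjusted p = 0.000643), again without overlap.

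Pygl, the liver-type phosphorylase, was at 9.76, 9.56 and 9.50 in EtOH and at 9.81, 10.04 and 9.99 in EtOH_Rosi. The rise was small, 0.34 ± 0.10 (adjusted p = 0.0193), and its nearest arrays lay only 0.05 apart. It was not called without EtOH 2 (adjusted p 0.0671), EtOH 3 (0.0811), EtOH_Rosi 2 (0.0778) or EtOH_Rosi 3 (0.0594). Pygm, the muscle-type phosphorylase, lay between 5.44 and 5.70 on all 12 arrays, below the median level of all genes, and its groups overlapped after EtOH. Its differences were 0.06 ± 0.07 after EtOH (adjusted p = 0.58) and -0.10 ± 0.07 after 4OHT (adjusted p = 0.345). No detection level was set, so whether Pygm was measured above background was not tested.

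**Figure D2:**
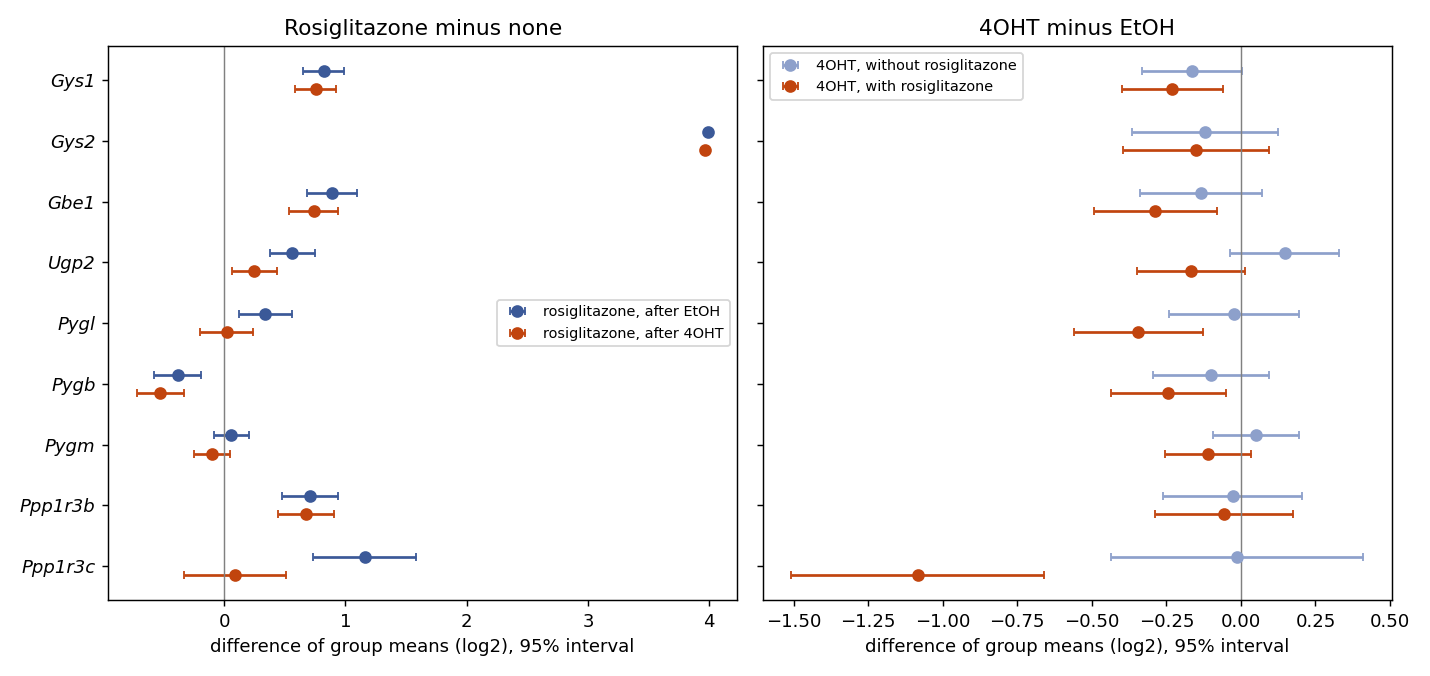
Differences between group means on the log2 scale (horizontal axis) for the 9 genes (vertical axis), with limma's 95% interval as bars except for the rosiglitazone differences of Gys2, which chose it. Left, rosiglitazone against none after EtOH and after 4OHT. Right, 4OHT against EtOH without and with rosiglitazone, where Ppp1r3c with rosiglitazone lies at -1.08 and every other difference lies between -0.34 and 0.15.

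Ppp1r3c, also called PTG (protein targeting to glycogen), is known from adipocytes. Like Pygl, it was called higher with rosiglitazone after EtOH and not after 4OHT. It was at 9.89, 9.55 and 9.22 in EtOH and at 10.53, 10.68 and 10.93 in EtOH_Rosi. After 4OHT it was at 9.82, 9.51 and 9.29 without rosiglitazone and at 9.91, 9.76 and 9.22 with it. The EtOH_Rosi arrays stood above the 9 others, and the other 3 groups overlapped.

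The rise of Ppp1r3c after EtOH was 1.16 ± 0.20 (2.23-fold, adjusted p = 0.000388), the largest among the 8 members other than Gys2. After 4OHT the difference was 0.09 ± 0.20 (adjusted p = 0.813), with a 95% interval from -0.33 to 0.51. The difference between the rises was -1.07 ± 0.28. It had an unadjusted p of 0.00196 and an adjusted p = 0.0978, and so did not pass over all genes. With estimated array weights it did (-1.05, adjusted p 0.0474), while leaving out 4OHT_Rosi 3 gave -0.86 (adjusted p 0.18).

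The comparison of 4OHT with EtOH under rosiglitazone asked what the treatment of the floxed precursors changed in stimulated adipocytes. Ppp1r3c was the 1 member called: it fell by 1.08 ± 0.20 (2.12-fold, adjusted p = 0.00396), with all 4OHT_Rosi arrays below all EtOH_Rosi arrays. None of the 9 was called higher. Over all genes, 3.38% were called lower and 4.65% higher. Ranked over the 22180 genes from the largest rise, Ppp1r3c was number 22166, near the end of the largest falls. The call held without each array in turn, with differences from -1.22 to -0.88 and adjusted p-values from 0.00309 to 0.0204. Without 4OHT_Rosi 3 the difference was -0.88 (adjusted p 0.015).

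The other 8 members were also lower in 4OHT_Rosi than in EtOH_Rosi by their means, as were 52.2% of all genes, but none of them was called. Pygl (-0.34 ± 0.10, adjusted p = 0.0555), Gbe1 (-0.29 ± 0.09, adjusted p = 0.0899), Pygb (-0.24 ± 0.09, adjusted p = 0.13) and Gys1 (-0.23 ± 0.08, adjusted p = 0.0984) had unadjusted p-values under 0.05, as did 20.7% of all genes, 9.97% with a negative difference. The 4OHT_Rosi arrays lay below the EtOH_Rosi arrays in Gys1, Gys2, Gbe1, Pygl and Ppp1r3c, where 10.3% of all genes did so. The median over the 9 members was -0.23, beside -0.01 over all genes tested. The count of members called lower was 2 without EtOH 1 and 3 without EtOH_Rosi 1 or 4OHT_Rosi 1, and it was 3 or 4 under 3 other settings given with the limits at the end. Over all genes, 452 to 739 were called lower without each array in turn, against 750 with all arrays. The all-gene counts of falls under the 3 other settings are not given here. Differences of Ugp2 (-0.17 ± 0.08, adjusted p = 0.291), Pygm (-0.11 ± 0.07, adjusted p = 0.402) and Ppp1r3b (-0.06 ± 0.11, adjusted p = 0.831) were smaller, and that of Ppp1r3b turned positive with array weights (0.01) and without 4OHT_Rosi 3 (0.02).

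For Gys2 the difference between 4OHT_Rosi and EtOH_Rosi was -0.15 ± 0.11 (adjusted p = 0.522), with a 95% interval from -0.40 to 0.10. Both groups also enter the rosiglitazone differences that chose Gys2, so this value is not free of that choice. The interval for Ppp1r3c in the same comparison ran from -1.51 to -0.66.

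Without rosiglitazone, 4OHT against EtOH gave no call among the 9 members, and limma gave none at an unadjusted p under 0.05 either. Over all genes, 3.91% were called. Differences ran from -0.16 ± 0.08 in Gys1 (adjusted p = 0.331) to 0.15 ± 0.08 in Ugp2 (adjusted p = 0.447). The arrays of EtOH and 4OHT overlapped in every member, where 22.9% of all genes did not overlap. Gys2 differed by -0.12 ± 0.11 (adjusted p = 0.705), and by 0.05 without EtOH 1. Ppp1r3c differed by -0.01 ± 0.20 (adjusted p = 0.989), with a wide 95% interval from -0.44 to 0.41, and its sign changed with array weights and median centring.

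In the 4OHT groups, rosiglitazone against none called 4 of the 8 members other than Gys2 higher (Gys1, Gbe1, Ugp2, Ppp1r3b) and 1 lower (Pygb). Over all genes, 11.6% were called higher and 12.1% lower. The rosiglitazone arrays lay above the others in the same 4 genes, where 18.1% of all genes did so, and below them in Pygb and Pygm, where 18% did. Pygl, at 9.71, 9.46 and 9.58 without and 9.74, 9.66 and 9.41 with rosiglitazone, differed by 0.02 ± 0.10 (adjusted p = 0.923). The comparisons after EtOH and after 4OHT share no arrays. The rosiglitazone differences after EtOH and the differences of 4OHT_Rosi from EtOH_Rosi both use the 3 EtOH_Rosi arrays, as does the interaction. They are thus not separate observations.

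The difference between the rosiglitazone effects, the interaction, was tested for those 8 members, and none passed. Over all genes, 1.01% did. All 8 differences were negative, as were 50.7% over all genes, and 3 had an unadjusted p under 0.05 in limma: Ppp1r3c, Ugp2 and Pygl (-0.32 ± 0.14, adjusted p = 0.333). Over all genes, 14% had such an unadjusted p, and 7.06% with a negative difference. A call on one side of this design and not on the other is therefore not shown to differ for these members, save Ppp1r3c with array weights. For Gys1 the difference was -0.07, with a 95% interval from -0.31 to 0.17, and for Gbe1 it was -0.15, with an interval from -0.44 to 0.14.

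**Figure D3:**
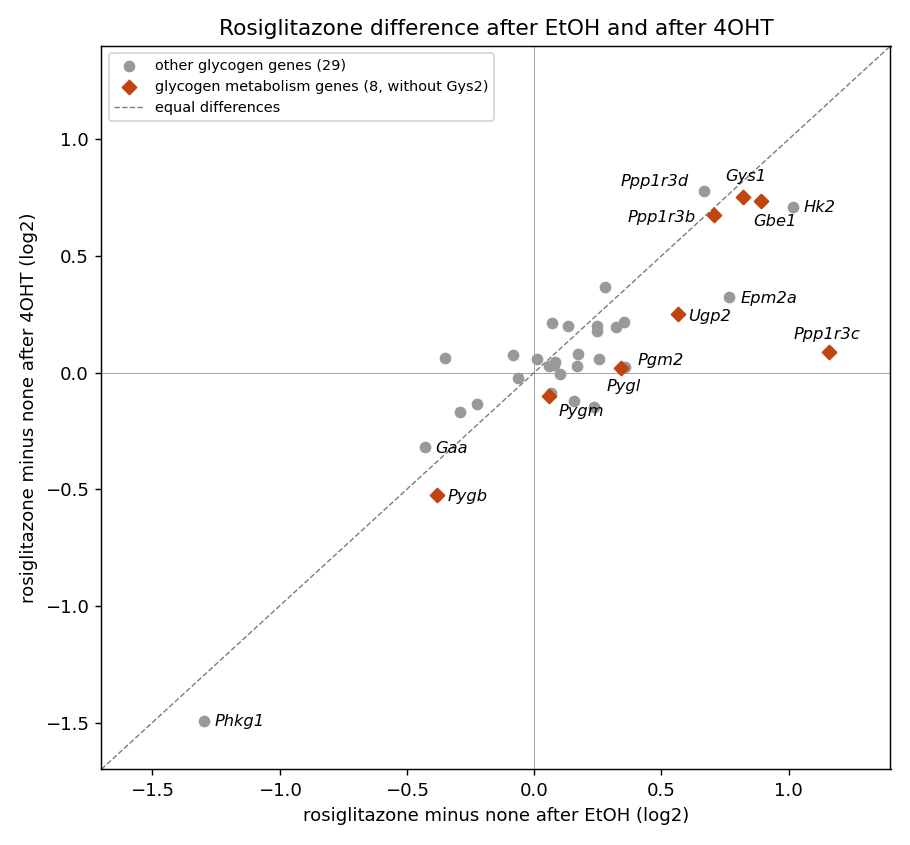
Rosiglitazone difference (log2) after EtOH (horizontal axis) and after 4OHT (vertical axis) for 8 glycogen metabolism genes (diamonds) and the 29 other glycogen genes measured (circles). Each point is 1 gene, the dashed line marks equal differences, and Gys2, at 3.99 and 3.96, lies outside the axes. Ppp1r3c lies at 1.16 and 0.09, below the line, while Gys1, Gbe1 and Ppp1r3b lie near it.

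Promoter sequence was available in the RefSeq table (GRCm38.p6) for 7 of the 9 members, all but Gys2 and Ppp1r3b. The 250 bases before the start site are shown for Ppp1r3c and Pygl, whose rise was called after EtOH only, and for Gys1, which rose in both backgrounds. They lie at chr19:36736605-36736854 on the minus strand (Ppp1r3c), chr12:70227684-70227933 on the minus strand (Pygl) and chr7:45434589-45434838 on the plus strand (Gys1). Capitals mark matches, on either strand, to ACGTG (the core of hypoxia response elements), to CACGTG (the E-box, which contains that core) and to AGGTCA (the nuclear receptor hexamer).
Ppp1r3c: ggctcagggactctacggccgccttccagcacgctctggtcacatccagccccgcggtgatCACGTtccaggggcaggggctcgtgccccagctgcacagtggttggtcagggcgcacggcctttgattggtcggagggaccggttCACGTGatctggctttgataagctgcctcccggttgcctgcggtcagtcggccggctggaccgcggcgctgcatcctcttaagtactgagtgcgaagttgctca
Pygl: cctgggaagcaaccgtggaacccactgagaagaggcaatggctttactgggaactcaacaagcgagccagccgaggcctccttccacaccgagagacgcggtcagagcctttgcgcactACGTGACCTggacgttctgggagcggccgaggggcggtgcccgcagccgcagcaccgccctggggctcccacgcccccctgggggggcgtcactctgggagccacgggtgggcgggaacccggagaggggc
Gys1: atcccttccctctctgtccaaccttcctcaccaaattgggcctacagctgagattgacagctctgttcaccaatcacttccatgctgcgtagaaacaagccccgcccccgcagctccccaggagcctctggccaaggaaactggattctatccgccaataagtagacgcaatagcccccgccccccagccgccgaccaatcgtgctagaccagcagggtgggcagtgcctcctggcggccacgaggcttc

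The Ppp1r3c sequence held 3 matches to ACGTG, starting 189, 104 and 103 bases before the start site, and the last pair are the overlapping strands of 1 CACGTG. Pygl held 1 match to ACGTG at 131 bases and 1 overlapping match to AGGTCA at 128 bases before the start site, and Gys1 held none of these motifs. The letters do not sort the members by their response: ACGTG was also in the windows of Pygb, Pygm and 1 of 2 promoters of Ugp2, and not in that of Gbe1. Among 32851 promoters of this length in the table, 16.6% held ACGTG, 6.02% CACGTG and 14% AGGTCA. The direct repeat AGGTCANAGGTCA, a form of the element that PPARgamma binds, was in none of the 7 members' windows and in 0.0335% of all. A match is a description of letters, and a missing match says nothing of binding elsewhere.

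The genes most like Gys2 over the 12 arrays were looked up among 11105 genes whose highest group mean reached the median level. The 5 with the highest Pearson r were Chchd10 (0.999), the glycerol 3-phosphate dehydrogenase gene Gpd1 (0.998), the arylacetamide deacetylase gene Aadac (0.998), the carnitine carrier gene Slc25a20 (0.996) and Ank (0.995). Their rosiglitazone differences after EtOH ran from 0.81 in Ank to 3.78 in Aadac, so the likeness is of pattern and not of size. For Ppp1r3c the 5 were Selenbp1 (0.980), Mettl26 (0.970), Stag2 (0.969), Coq8a (0.965) and Macrod1 (0.960). Selenbp1 differed by 1.02 with rosiglitazone after EtOH and by 0.29 after 4OHT.

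For Pygl the 5 were Gdap10 (0.965), the metallothionein gene Mt1 (0.941), Ppp1r3c (0.940), Selenbp1 (0.922) and Tppp (0.920). Among the members themselves, Gys1, Gys2, Gbe1 and Ppp1r3b had pairwise r from 0.946 to 0.986. Pygb ran opposite to Gys2 (-0.834), and Pygm had r between -0.229 and 0.227 with every other member. All these are descriptions over 12 arrays that share treatments.

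A list of 33 other glycogen genes, of which 29 were measured by a probe set of their own, was read alongside. With rosiglitazone after EtOH, 12 of the 29 rose and 4 fell, where 14.4% and 16.3% of all genes did. Without each array in turn, 8 to 12 of them rose and 4 to 5 fell. Over all genes, 2732 to 3260 then rose, against 3190 with all arrays. Their median difference was 0.13, beside 0.01 over all genes. The hexokinase gene Hk2, whose enzyme traps glucose as glucose 6-phosphate, rose by 1.02 ± 0.12 (2.02-fold, adjusted p = 1.43e-05) from a group mean of 8.80 to 9.82. Ppp1r3d, another targeting subunit of phosphatase 1, rose from 9.02 to 9.69, and its 3 arrays in each group lay within 0.07 of one another (0.67 ± 0.05, adjusted p = 6.77e-07).

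Epm2a, the gene of the glycogen phosphatase laforin, rose by 0.77 ± 0.13 (adjusted p = 0.000395), and Pgm2, a phosphoglucomutase family gene whose human counterpart acts mainly on pentose phosphates, by 0.36 ± 0.05 (adjusted p = 9.88e-05). The falls were led by Phkg1, the muscle-type catalytic subunit of phosphorylase kinase, which activates phosphorylase. It was between 7.78 and 7.99 in EtOH and between 6.43 and 6.66 in EtOH_Rosi, a fall of 1.30 ± 0.10 (2.46-fold, adjusted p = 4.35e-07). Gaa, the lysosomal glucosidase that digests glycogen, fell by 0.43 ± 0.06 (adjusted p = 5.54e-05).

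**Figure D4:**
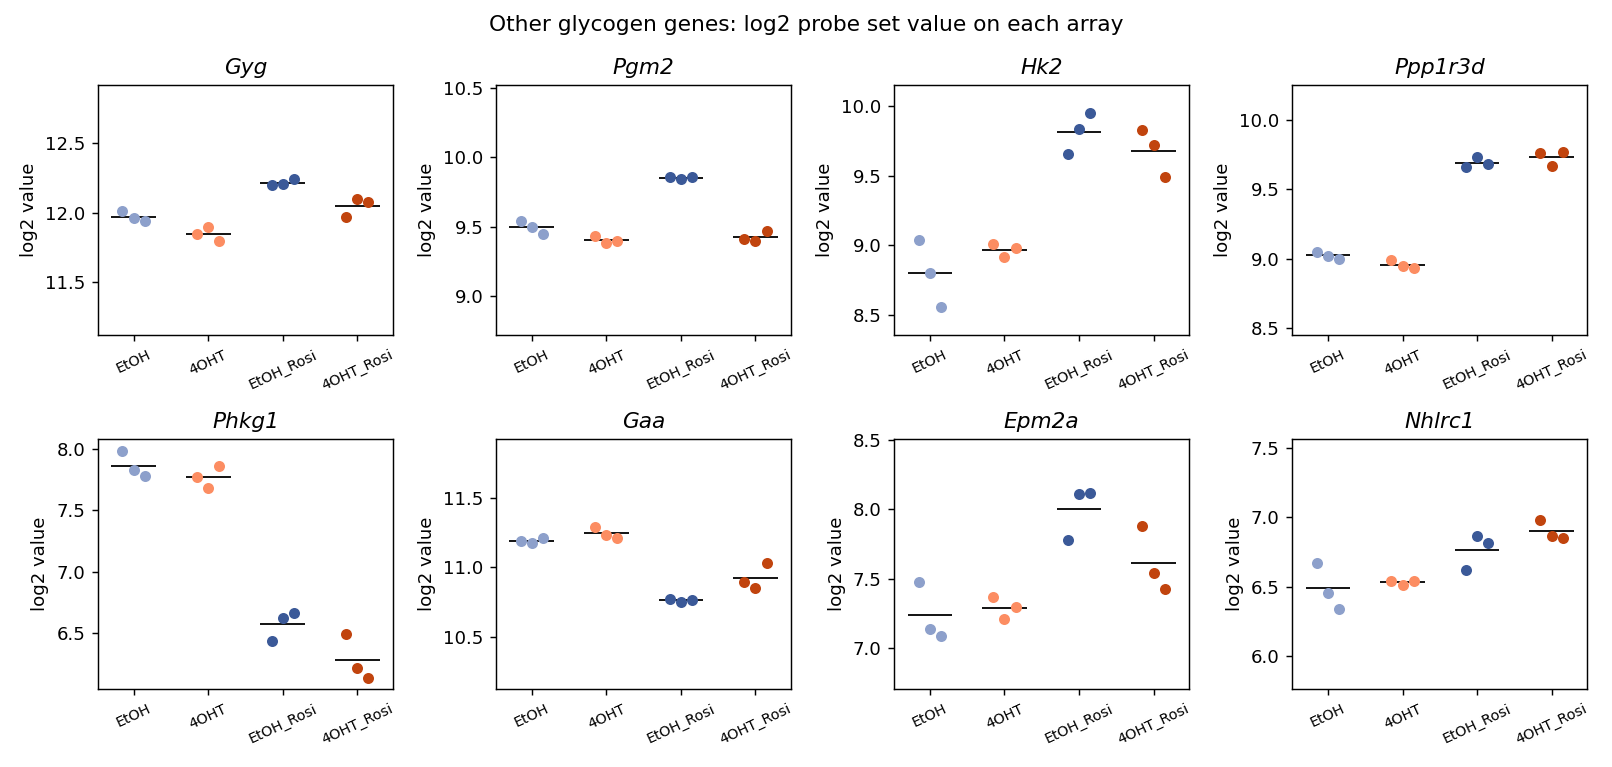
Log2 probe set value (vertical axis, a scale of its own in each panel) of 8 other glycogen genes in the 4 groups (horizontal axis), with 1 point per array and a bar at each group mean of 3 arrays. Phkg1 is lower and Ppp1r3d and Hk2 are higher with rosiglitazone in both backgrounds, whereas Pgm2 is high in EtOH_Rosi alone, at 9.84 to 9.86.

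After 4OHT, rosiglitazone raised 8 of the 29 and lowered 2, where 11.6% and 12.1% of all genes were called. Their median difference was 0.06. The count of rises was 5 without 4OHT 2 and 4 without 4OHT 3 or 4OHT_Rosi 1. Phkg1 again fell most clearly (-1.49 ± 0.10, adjusted p = 1.61e-07), Gaa fell by 0.32 ± 0.06 (adjusted p = 0.000986), and Ppp1r3d (0.78 ± 0.05, adjusted p = 2.48e-07) and Hk2 (0.71 ± 0.12, adjusted p = 0.000473) rose. Nhlrc1, the gene of the ubiquitin ligase malin, which acts with laforin, rose by 0.37 ± 0.09 (adjusted p = 0.00601). After EtOH Nhlrc1 was called higher too (0.28 ± 0.09, adjusted p = 0.0236). The call after EtOH was lost without EtOH 2 (adjusted p 0.0780), EtOH 3 (0.110), EtOH_Rosi 2 (0.0986) or EtOH_Rosi 3 (0.0741). A fit of the groups compared alone lost it as well (0.0707). Gyg, glycogenin, the protein primer on which a glycogen particle starts, rose by 0.20 ± 0.06 after 4OHT (adjusted p = 0.0182). That call was lost without 4OHT 1 (adjusted p 0.0539), 4OHT 3 (0.0753), 4OHT_Rosi 2 (0.0699) or 4OHT_Rosi 3 (0.05), and in a fit of the groups compared alone (0.0545). The rise of Gyg after EtOH was 0.25 ± 0.06 (adjusted p = 0.00352), and this call held without each array in turn.

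With rosiglitazone, 4OHT against EtOH lowered 1 of the 29, Pgm2, and raised none by limma, with 3 higher and 5 lower at an unadjusted p under 0.05. Over all genes, 3.38% were called lower, and the 1 call is near that share. Such an unadjusted p was found in 27.6% of the 29 and in 20.7% of all genes. With a negative difference the shares were 17.2% and 9.97%, and whether they differ was not tested. The count of falls was 2 without EtOH_Rosi 1 and 3 without 4OHT_Rosi 1. Pgm2 was at 9.85 ± 0.01 in EtOH_Rosi and 9.43 ± 0.04 in 4OHT_Rosi, a fall of 0.43 ± 0.05 (adjusted p = 0.000193). Without rosiglitazone no gene of the list was called by limma, with 4 higher and 1 lower at an unadjusted p under 0.05, as 16% of all genes had, and 1 was called higher without EtOH 1 or 4OHT_Rosi 2.

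The cultures were not purified, and other marker lists moved with rosiglitazone. After EtOH, 4 of 5 progenitor and fibroblast markers, 5 of 6 macrophage and 5 of 5 endothelial markers were called lower with rosiglitazone. After 4OHT the counts were 4, 3 and 4. Over all genes, 16.3% were called lower after EtOH and 12.1% after 4OHT. The mean level of the progenitor list ran from 10.27 to 10.37 in EtOH and from 9.23 to 9.43 in EtOH_Rosi, that of the macrophage list from 8.20 to 8.53 and from 7.71 to 7.84, and that of the endothelial list from 9.27 to 9.39 and from 8.49 to 8.67. That of 9 adipocyte markers ran from 11.92 to 12 and from 11.81 to 11.92, and 4 of them rose and 2 fell after EtOH. Lep fell from a group mean of 9.44 to 5.87 and Retn from 13.13 to 12.90, while Cidec rose from 11.05 to 12.94. The mean level of this list thus leans on Lep, and the median difference of the 9 was 0.08. The part of these lists in the rosiglitazone differences was not tested.

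Of 6 brown and beige markers, Ucp1, Cidea, Cox8b, Cox7a1 and Elovl3 rose with rosiglitazone after EtOH, where 14.4% of all genes were called higher. The first 4 fell after 4OHT under rosiglitazone, where 3.38% of all genes were called lower and 4.65% higher. The mean level of the list ran from 8.95 to 9.17 in EtOH_Rosi and from 8.06 to 8.22 in 4OHT_Rosi. In the same comparison, 1 progenitor marker fell, 1 endothelial marker rose, and none of the macrophage, adipocyte, muscle or hepatocyte markers was called. Their part in the fall of Ppp1r3c was not tested.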

How the data were processed

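The authors deposited 1 table of log2 values for 41345 probe sets on 12 arrays. Per the submitters' processing notes, Affymetrix Expression Console was used, and its version, summary method and normalization were not given in the sources used here. Probe sets with 1 gene symbol (23521) were used, and 23328 of them took their current name from RefSeq (GRCm38.p6) by Entrez ID. Probe sets with several symbols (1814) or no gene (16010) were left out. The brightest probe set by mean over 12 arrays stood for each of 22180 genes, and Ppp1r3b alone among the members had a second.

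All 12 arrays entered 1 limma 3.58.1 fit (R 4.3.3) with the 4 group means as coefficients and eBayes moderation (8 residual and 5.07 prior degrees of freedom), for 5 contrasts. No filter on dim genes was applied. The steps were tested on simulated data. Figures were drawn with matplotlib 3.10.9.

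The members and gene lists were chosen with earlier results of these data known. Named genes were the 9 members, Prdm16, up to 6 called genes of the glycogen list per contrast by smallest p, and for Gys2, Ppp1r3c and Pygl the 5 genes of highest Pearson r, predicted genes left out. Alternatives were a replicate block, array weights, an intensity trend (with robust eBayes), fitting only the groups compared, median centring, quantile normalization, a filter at the median level, the mean of all probe sets, and leaving out each array.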

Additional observations from a re-analysis of the deposited data

Results flagged for a closer look

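Of the glycogen genes named above, only Pgm2 passed the test of the difference between the rosiglitazone effects. Without rosiglitazone it was at 9.50 ± 0.05 (SD, n = 3) after EtOH and 9.40 ± 0.03 after 4OHT, and with it at 9.85 ± 0.01 and 9.43 ± 0.04. The difference was -0.33 ± 0.07 (limma adjusted p = 0.0487). It was lost without any 1 of the 12 arrays (-0.36 to -0.31, adjusted p from 0.0631 to 0.143), with a replicate block (adjusted p 0.106) and with median centring (adjusted p 0.0611).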

How the results depend on the processing

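The labels do not say whether the replicate numbers pair samples. Same-numbered arrays of different groups had correlations of their deviations from the group means between -0.24 and 0.08. For differently numbered arrays these ran from -0.16 to 0.32, which does not settle the pairing. With the replicate block, the rise of Ugp2 after 4OHT was not called (0.25, adjusted p 0.0747), and the interaction gave 59 genes higher and 57 lower in place of 116 and 107, with 0 of the other glycogen genes. Among the 9 members, counts of falls after 4OHT with rosiglitazone were 3 with an intensity trend, 3 with quantile normalization and 1 to 3 without each array, in place of 1. With the filter at the median level, which left 8 members, the count was 4. The counts of falls over all genes with the trend, quantile normalization or the filter are not given here. The higher counts are thus not read as a result about the members. With array weights 1 member, Ppp1r3c, passed the interaction. The filter left 22 of the 29 other glycogen genes. Of the other glycogen genes, 4OHT without rosiglitazone raised 2, 3, 2 or 1 with the trend, array weights, the filter or only the groups compared, and 0 to 1 without each array. With rosiglitazone it raised 2 and lowered 2 with the trend, raised 2 and lowered 3 with the filter, and raised 0 to 1 and lowered 1 to 3 without each array. Rosiglitazone after 4OHT raised 5 with only the groups compared and 4 to 8 without each array. In the interaction median centring left 0, the filter called 1 higher, and 0 were called lower without any 1 array.

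Over all genes, array weights gave 1167 higher and 1077 lower for 4OHT without rosiglitazone. Only the groups compared gave 622 lower there, and 499 higher and 330 lower with rosiglitazone. In the interaction the trend gave 192 and 201, array weights 198 and 198, and the filter 200 and 181 of the 11091 genes it left. Without each array the counts for 4OHT alone were 276 to 522 higher and 189 to 537 lower. Those for 4OHT with rosiglitazone were 691 to 981 higher, against 1032 with all arrays, and 452 to 739 lower. Those of the interaction were 24 to 177 higher and 27 to 173 lower. The cause of these shifts was not tested.

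Signs turned only in differences that were not called or not tested. For 4OHT without rosiglitazone, array weights gave 0.014 for Pygl, 0.037 for Ppp1r3b and 0.045 for Ppp1r3c, and median centring 0.0033 for Ppp1r3c. Quantile normalization gave -0.0067 for Pygl with rosiglitazone after 4OHT, array weights 0.0099 for Ppp1r3b in 4OHT with rosiglitazone, and the mean of its probe sets 0.033 for its interaction. Without each array, 4OHT alone gave -0.23 to 0.052 for Gys2, -0.087 to 0.053 for Pygl, -0.13 to 0.06 for Ppp1r3b and -0.18 to 0.15 for Ppp1r3c. With rosiglitazone Ppp1r3b ran from -0.17 to 0.022. Rosiglitazone after 4OHT gave -0.048 to 0.12 for Pygl and -0.05 to 0.29 for Ppp1r3c, and the interaction -0.20 to 0.083 for Gys2 and -0.14 to 0.07 for Ppp1r3b. Where a group keeps 2 arrays, its spread is pooled with the other groups. Signal over background was not given, so the limit for dim genes such as Pygm is unknown.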
